A study of Homo sapiens with 5 samples.

Results

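Peaks of acetylated lysine 130 of histone H2A (H2A-K130ac) at transcription start sites were described in the human prostate cancer line C4-2B. A start-site peak was a peak that the authors' annotation placed in the promoter class of at most 1 kb, so that its nearest edge lay within 1 kb of the annotated start of a transcript. There were 2150 such peaks among 67806 annotated peaks after abiraterone, or 3.17% (exact 95% binomial interval 3.04 to 3.31), and 3218 among 91398 after Romidepsin, or 3.52% (3.4 to 3.64). Abiraterone inhibits CYP17A1, the enzyme that makes androgen precursors, and Romidepsin inhibits the histone deacetylases HDAC1 and HDAC2.

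Chromatin immunoprecipitation and sequencing was performed with an antibody against H2A-K130ac, and 1 peak list per treatment was used. The labels name the cell line, the antibody and, in the sample titles, abi or romi, and they give no dose or time for C4-2B, since their treatment text speaks of VCaP cells. They also call both samples breast cancer, whereas the study uses C4-2B as a prostate cancer line. No untreated C4-2B library was analysed here, nor were the 3 VCaP samples, so each value describes 1 peak list. Whether duplicates were pooled into a list is not stated, no test between treatments was possible, and a difference between the lists cannot be told apart from a difference between the samples behind them.

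RNA polymerase II begins transcription at the start site, and the DNA around and just upstream of it, the promoter, binds the factors that recruit it. Acetylation of histone tails is written by acetyltransferases such as KAT2A and removed by deacetylases, and many acetylation marks on histones H3 and H4 peak on either side of active start sites, around a region poor in nucleosomes. Most human promoters are rich in CpG dinucleotides. A peak is a stretch where sequenced fragments pile up above a control. Its summit is the highest point and its fold is the height over the control. For its peak calls the paper names the vehicle-treated sample as control. The series holds no input or vehicle sample for the lists described here, so the control behind them could not be established. If it was vehicle, the sides, densities and promoters below describe gain over vehicle and not where the mark lay.

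Promoters of 6 genes were chosen for display, after their values were seen, among the named genes that had a start-site peak of each list at the same start and whose annotated transcript matched the RefSeq gene to within 100 bp in length. They show where the peaks of both lists reached into the 250 bases before the start and where they stopped short of them. Each line gives the 250 bases before the RefSeq start on the gene's strand, 5′ to 3′, in GRCh38.p14, and capitals mark promoter motifs found on either strand. The motifs were the GC box, searched as GGGCGG, the CCAAT box, searched by the letters in its name, and the TATA box of the form TATAAA. At the first 3 genes, peaks of both lists reached into this window, though at KRTAP12-3 they ended 166 bp (abiraterone) and 204 bp (Romidepsin) upstream of the start. At AP2M1 and CDC40 the peaks of both lists stopped short of it, upstream and downstream respectively, and at ATOX1 only the abiraterone peak reached it. Reach was read from the distance of a peak to its annotated start. That start was taken to be the RefSeq start because the lengths matched, and peak coordinates were not carried over to GRCh38.p14.
GRM3, chr7:86643659-86643908, + strand: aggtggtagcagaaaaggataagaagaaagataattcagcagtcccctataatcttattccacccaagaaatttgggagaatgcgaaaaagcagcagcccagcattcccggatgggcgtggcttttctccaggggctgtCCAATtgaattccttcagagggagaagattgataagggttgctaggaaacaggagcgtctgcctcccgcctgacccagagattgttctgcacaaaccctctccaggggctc
KRTAP12-3, chr21:44657682-44657931, + strand: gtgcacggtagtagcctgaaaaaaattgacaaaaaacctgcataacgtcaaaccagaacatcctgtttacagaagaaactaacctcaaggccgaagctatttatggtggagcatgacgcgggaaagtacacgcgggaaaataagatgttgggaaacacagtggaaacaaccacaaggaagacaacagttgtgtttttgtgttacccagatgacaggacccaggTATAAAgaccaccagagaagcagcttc
TAS2R60, chr7:143443203-143443452, + strand: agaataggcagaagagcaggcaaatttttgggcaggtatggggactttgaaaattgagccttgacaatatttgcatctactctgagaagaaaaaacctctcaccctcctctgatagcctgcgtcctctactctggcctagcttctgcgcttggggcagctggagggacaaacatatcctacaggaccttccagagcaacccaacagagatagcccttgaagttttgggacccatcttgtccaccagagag
AP2M1, chr3:184174605-184174854, + strand: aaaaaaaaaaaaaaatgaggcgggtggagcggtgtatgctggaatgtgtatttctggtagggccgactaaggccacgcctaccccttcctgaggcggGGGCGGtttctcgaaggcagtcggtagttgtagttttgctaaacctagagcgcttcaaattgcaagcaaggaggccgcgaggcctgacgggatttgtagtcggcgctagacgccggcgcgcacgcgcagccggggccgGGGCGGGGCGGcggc
CDC40, chr6:110180177-110180426, + strand: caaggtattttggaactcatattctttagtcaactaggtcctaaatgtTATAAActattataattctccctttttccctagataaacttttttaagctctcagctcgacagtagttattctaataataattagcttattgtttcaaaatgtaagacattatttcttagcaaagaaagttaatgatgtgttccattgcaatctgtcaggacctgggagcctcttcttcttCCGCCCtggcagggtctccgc
ATOX1, chr5:151758632-151758881, - strand: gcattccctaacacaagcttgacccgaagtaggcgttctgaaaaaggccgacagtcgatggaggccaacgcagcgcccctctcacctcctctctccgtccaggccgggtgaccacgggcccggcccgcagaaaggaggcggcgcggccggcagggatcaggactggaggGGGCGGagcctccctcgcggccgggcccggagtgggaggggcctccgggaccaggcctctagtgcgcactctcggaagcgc

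The 6 sequences differed widely in composition. The ATOX1 window had a GC content of 70.0% and 24 CpG dinucleotides, with an observed to expected CpG ratio of 0.784, and the AP2M1 window had 60.4% and 25, with a ratio of 1.16. CDC40 stood at 36% GC with 3 CpG dinucleotides and both a TATA box and a GC box. KRTAP12-3 had 44.4% GC, 7 CpG dinucleotides and a TATA box close to the start. GRM3 had 50.0% GC, 5 CpG dinucleotides and a single CCAAT box, and TAS2R60 had 2 CpG dinucleotides and none of these 3 motifs.

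Peaks lay on both sides of the start in nearly equal numbers. After abiraterone, 877 of 2150 peaks (40.8%, 38.7 to 42.9) were upstream, 333 (15.5%, 14.0 to 17.1) covered the start and 940 (43.7%, 41.6 to 45.8) were downstream. After Romidepsin, 1359 of 3218 (42.2%, 40.5 to 44.0) were upstream, 463 (14.4%, 13.2 to 15.6) covered the start and 1396 (43.4%, 41.7 to 45.1) were downstream. Among peaks that did not cover the start, the downstream share was 51.7% (49.4 to 54.1) after abiraterone and 50.7% (48.8 to 52.6) after Romidepsin, and both intervals include an even split. These intervals cover counting error only.

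Summits were about as dense at the start as further out within 1 kb. After abiraterone, 91.2 summits per 100 bp (83.0 to 100) lay within 250 bp of a start, 95.6 (87.2 to 105) between 250 and 500 bp and 89.8 (84.0 to 95.9) between 500 bp and 1 kb. Density then fell to 69.7 (66.0 to 73.4) between 2 and 3 kb and 64.0 (60.5 to 67.6) between 4 and 5 kb. After Romidepsin the values were 128 (118 to 138) within 250 bp, 130.4 (121 to 141) between 250 and 500 bp, 137 (129.7 to 144) between 500 bp and 1 kb and 132 (127 to 137) between 1 and 2 kb. They were 120.5 (116 to 125) between 2 and 3 kb and 96.3 (92.0 to 101) between 4 and 5 kb. Single bins of 100 bp scattered, and the Romidepsin bin just upstream of the start held 105 summits, while another within 1 kb upstream held 104. Over wider windows the density of summits showed neither a sharp rise at the start nor a clear dip over it. The first 250 bp upstream and downstream held 221 and 234 summits after abiraterone and 318 and 320 after Romidepsin. Fewer bases lie several kb from their nearest start than close to one, because starts are often near each other, and the part of this in the decline was not tested.

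**Figure D1:**
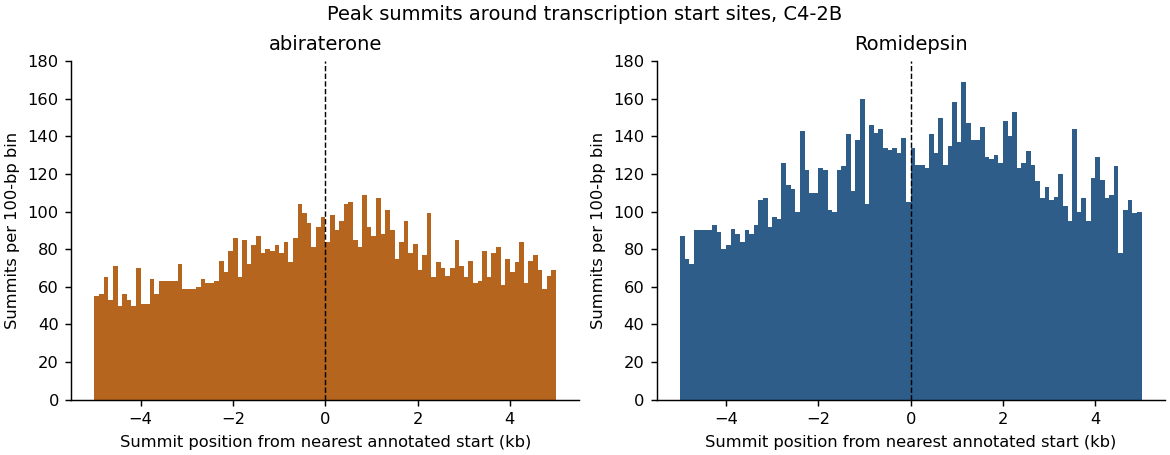
Number of peak summits (y axis) in 100-bp bins by position relative to the nearest annotated start (x axis, kb, negative values upstream), for abiraterone (left) and Romidepsin (right). The abiraterone profile is a broad mound that declines from 91.2 summits per 100 bp within 250 bp of the start to 64.0 at 4 to 5 kb, the Romidepsin profile is nearly level out to 2 kb, and the low Romidepsin bin of 105 summits next to the dashed line that marks the start is matched by one of 104 further upstream.

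Start-site peaks were slightly wider than the other peaks of their list. The median width was 353 bp (95% interval 345 to 359) against 339 bp after abiraterone and 370 bp (364 to 377) against 348 bp (347 to 349) after Romidepsin. Peaks of 500 bp or more made up 23.8% (22 to 25.6) of start-site peaks and 19.1% (18.8 to 19.4) of the others after abiraterone. The shares were 26.3% (24.8 to 27.9) and 20.3% after Romidepsin. Distance was measured from the nearest edge of a peak, so a wide peak counts as a start-site peak from further away, and part of this difference follows from the definition.

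Width differed by side. Peaks that covered the start had a median of 434 bp (396 to 471) after abiraterone and 436 bp after Romidepsin, and 39.9% and 39.1% of them were 500 bp or wider, but a wide peak also covers any given base more often. Upstream peaks measured 344 bp (332 to 359) after abiraterone and 350 bp after Romidepsin at the median, and downstream peaks 339 bp (325 to 351) and 369 bp. With the peaks over the start left out, the abiraterone median was 343 bp, beside 343 bp for peaks 2 to 3 kb from a start, and the Romidepsin median was 361 bp, beside 352 bp. At the narrow end, 265 abiraterone peaks (12.3%, 11.0 to 13.8) and 377 Romidepsin peaks (11.7%, 10.6 to 12.9) were 125 bp wide, the smallest width in either list.

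**Figure D2:**
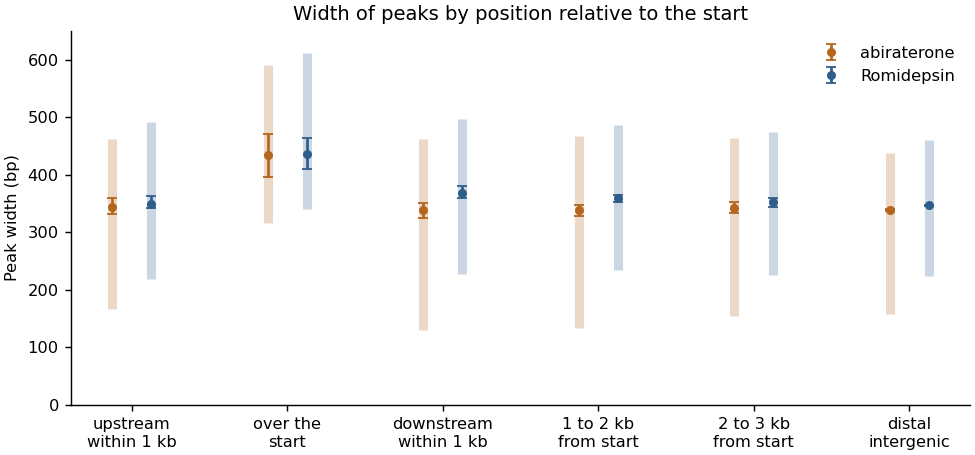
Peak width in bp (y axis) by position relative to the annotated start (x axis) for abiraterone and Romidepsin, with points for medians, capped bars for 95% intervals of the median and pale bars for the middle 50% of peaks. Peaks over the start had medians of 434 and 436 bp, and the highest median of any other class was 369 bp.

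The height of start-site peaks was that of other peaks at the median. The median fold was 2.83 for start-site peaks and for all other peaks after abiraterone, and 2.61 for both after Romidepsin, and folds were not compared between the lists. A −log10 q of at least 2, which is a false discovery rate of at most 0.01, was reached by 26.0% (24.1 to 27.9) of abiraterone start-site peaks and 24.9% (24.6 to 25.2) of the others. The shares were 2.49% (1.98 to 3.08) and 2.74% (2.63 to 2.85) after Romidepsin. The paper states a q cutoff of 0.01 for its peak calls, so most start-site peaks described here, in either list, do not meet it. The lowest −log10 q among them was 0.677 after abiraterone and 0.240 after Romidepsin. Many peaks shared the same value, with 1084 abiraterone start-site peaks (50.4%) at a −log10 q of 1.57 and 1671 Romidepsin ones (51.9%) at 0.717, which leaves ranks among them arbitrary.

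The highest start-site peaks lay mostly upstream. The 5 genes of highest fold after abiraterone were MOCS1, a molybdenum cofactor synthesis enzyme (fold 18.0, 320 bp upstream), LIMS1, a focal adhesion adaptor (16.1, 925 bp upstream), HAUS4, a subunit of the augmin complex of the spindle (8.55, 989 bp upstream), the transcription factor SOX7 (8.50, 804 bp upstream) and the antisense transcript DCST1-AS1 (8.06, 481 bp upstream). After Romidepsin they were CHN2, a Rac GTPase-activating protein (6.97, 935 bp upstream), HIF1AN, the asparagine hydroxylase that inhibits HIF1A (6.88, 793 bp upstream), FHIT, a dinucleotide hydrolase at a fragile site (6.69, 491 bp upstream), the nucleotide receptor P2RY6 (6.10, 452 bp upstream) and PARP15 (6.10, over the start). All 5 peaks of the first list and 4 of the 5 in the second were upstream. The pattern faded further down: among the 100 peaks of highest fold, 47 were upstream, 13 over and 40 downstream in either list, with an interval of 36.9 to 57.2% for the upstream share, which includes the share of all start-site peaks.

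Several peaks often lay at one gene. After abiraterone, 296 of 1815 genes had more than 1 start-site peak, and 258 of 1881 annotated starts (13.7%, 12.2 to 15.4) did. After Romidepsin the numbers were 378 of 2786 genes and 220 of 2983 starts (7.38%, 6.46 to 8.37). Peaks flanked the start on both sides at 46 starts after abiraterone and 73 after Romidepsin. Peaks of one list also lay close together away from starts. Another peak of the same list lay within 500 bp of 29.0% (27.1 to 31.0) of abiraterone start-site peaks and 28.6% (28.2 to 28.9) of the other abiraterone peaks. The shares were 14.5% (13.3 to 15.7) and 14.2% (14.0 to 14.5) after Romidepsin. Within 2 kb they were 35.2% (33.1 to 37.2) and 34.0% (33.6 to 34.3) after abiraterone, and 28.1% (26.6 to 29.7) near starts and 25.1% (24.8 to 25.4) elsewhere after Romidepsin, where the intervals do not overlap.

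The genes with the most start-site peaks had them at several annotated starts. CDK18, a cyclin-dependent kinase, had 5 Romidepsin peaks at 2 starts, of which 1 covered the second start. MID1, a microtubule-associated ubiquitin ligase on the X chromosome, had 5 at 3 starts, 4 of them downstream. NOS3, the endothelial nitric oxide synthase, had 5 at 2 starts, with folds from 1.74 to 3.44. After abiraterone, 6 genes had 4 such peaks, and the 3 with the highest peak were EPB41L1, a membrane cytoskeleton protein (fold up to 5.67), the zinc finger gene ZNF839 (up to 4.72) and STARD13, a GTPase-activating protein (up to 4.26).

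Of the 1815 genes with a start-site peak after abiraterone, 1618 were protein-coding (89.1%) and 100 were long non-coding RNA genes (5.51%). Of the 2786 after Romidepsin, 2416 (86.7%) were protein-coding and 177 (6.35%) were long non-coding RNA genes. Over all 20033 protein-coding genes of RefSeq, 8.08% had an abiraterone start-site peak, 12.1% a Romidepsin one and 1.62% one in each list, and these percentages are the background for every gene group described here. Small RNA genes were less often represented, with 39 of 1913 microRNA genes (2.04%, 1.45 to 2.78) after abiraterone and 107 (5.59%, 4.61 to 6.72) after Romidepsin, and 8 and 28 of 1199 snoRNA genes. The hg19 annotation behind the peaks and the current RefSeq table do not hold the same non-coding genes, and the part of this in these shares was not tested.

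The number of transcripts of a gene moved with the share that had a peak. Among protein-coding genes with 1 RefSeq transcript, 5.17% (4.56 to 5.82) had an abiraterone start-site peak and 7.62% (6.89 to 8.39) a Romidepsin one. Among genes with 16 or more transcripts the shares were 13.1% (11.8 to 14.5) and 18.8% (17.3 to 20.4). The share with a peak in each list went from 0.729% (0.511 to 1.01) to 2.98% (2.34 to 3.74). The number of annotated starts per gene was not counted, and its part in these shares was not tested.

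**Figure D3:**
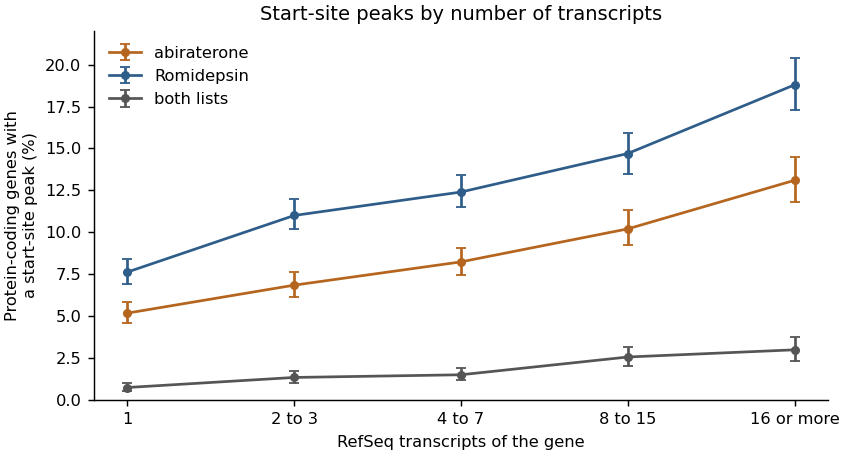
Share of protein-coding genes with a start-site peak (y axis, %) by the number of RefSeq transcripts of the gene (x axis), for abiraterone, Romidepsin and both lists, with exact 95% binomial intervals as bars. Each line climbs from genes with 1 transcript to genes with 16 or more, from 5.17% to 13.1% after abiraterone and from 7.62% to 18.8% after Romidepsin.

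Both lists had a start-site peak at 347 genes, which is 19.1% (17.3 to 21.0) of the abiraterone genes and 12.5% (11.3 to 13.7) of the Romidepsin genes. Among protein-coding genes, 20.1% (18.2 to 22.1) of those with an abiraterone peak also had a Romidepsin peak, beside 11.4% (10.9 to 11.8) of those without. In the other direction, 13.5% (12.1 to 14.9) of genes with a Romidepsin peak had an abiraterone peak, beside 7.34% (6.96 to 7.73) of those without. The 325 protein-coding genes in both lists had a median of 7 transcripts and a length of 46.3 kb, against 5 transcripts for genes in 1 list only and 3 transcripts and 22.3 kb for genes in neither, so transcript number and length moved with membership of both lists, and their part in it was not tested.

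A shared gene seldom meant a shared site. The peaks of both lists were assigned to the same annotated start at 191 of the 347 genes (55.0%, 49.6 to 60.4), and at 90 genes (25.9%, 21.4 to 30.9) they overlapped by at least 1 bp. The nearest summits of a gene were 1239 bp apart at the median, within 100 bp of each other at 33 genes (9.51%) and more than 10 kb apart at 102 (29.4%, 24.7 to 34.5). At the 191 shared starts, the nearest peaks were on the same side, or both over the start, at 94. Where both were off the start, they were on the same side at 87 of 124 (70.2%, 61.3 to 78.0), but overlapping peaks off the start fall on the same side by construction. Where the nearest peaks at a shared start did not overlap, they were on the same side at 26 of 102 (25.5%, 17.4 to 35.1). Those 102 include peaks over the start, and leaving out overlaps removes pairs on the same side.

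Counted by peaks, 108 abiraterone start-site peaks (5.02%, 4.14 to 6.03) overlapped any Romidepsin peak, beside 4.0% (3.86 to 4.16) of the other abiraterone peaks. For Romidepsin the numbers were 104 (3.23%, 2.65 to 3.90) and 2.89% (2.78 to 3.00). The abiraterone difference lay in the wider peaks: of those of at least 400 bp, 7.82% (6.02 to 9.95) near starts and 5.53% (5.22 to 5.86) elsewhere overlapped, while of those under 200 bp the shares were 3.07% (1.80 to 4.88) and 3.12% (2.86 to 3.39). With 50% of both peaks required to overlap, 36 start-site peaks of each list remained, or 1.67% of the abiraterone and 1.12% of the Romidepsin peaks.

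The 10 genes whose start-site peaks shared the most base pairs had both peaks on the same side or both over the start. At ZNF496, which encodes a zinc finger protein, peaks of 758 bp (abiraterone) and 863 bp (Romidepsin) covered the start and shared 758 bp, the whole of the narrower peak. At GRM3, a metabotropic glutamate receptor, peaks of 593 and 648 bp covered the start, shared 519 bp and had summits 90 bp apart. They reach the CCAAT box of the sequence shown above if the annotated and RefSeq starts are the same. At VCL, which encodes the adhesion protein vinculin, the peaks lay 485 and 461 bp downstream and shared 559 bp. LINC00265, a long non-coding RNA gene, shared 542 bp downstream of its start, and CDC40, a splicing factor, shared 469 bp there. DNAAF9 (543 bp shared), AP2M1, the medium subunit of the clathrin adaptor AP2 (499 bp), CIZ1, a nuclear protein of DNA replication (459 bp), the hair keratin-associated gene KRTAP12-3 (440 bp) and FAAH, which degrades the lipid anandamide (422 bp), had both peaks upstream. The folds of these peaks ranged from 1.90 at VCL to 3.80 at GRM3 after abiraterone and from 1.74 at KRTAP12-3 to 4.35 at FAAH after Romidepsin, on either side of the median of each list.

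**Figure D4:**
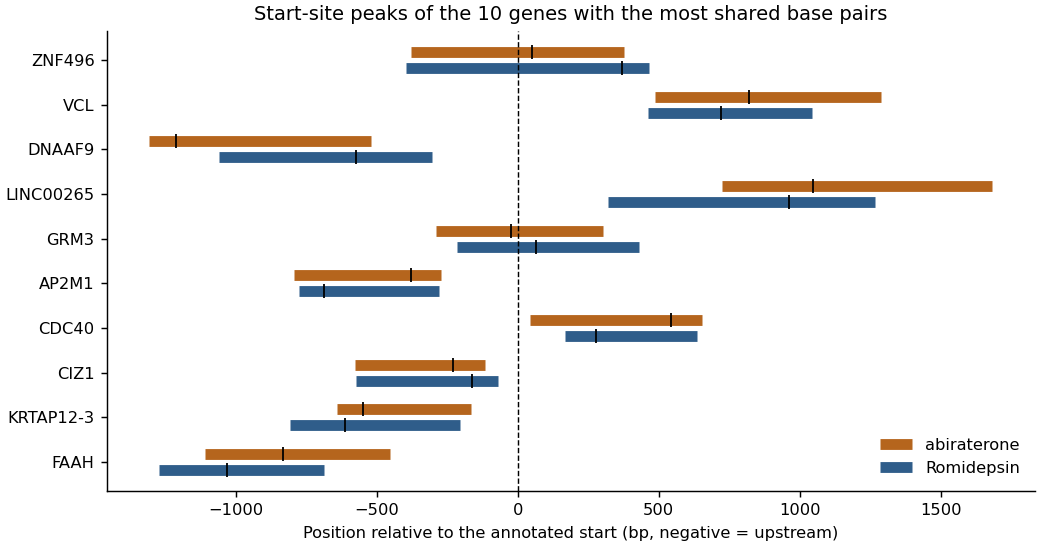
Start-site peaks of the 10 genes with the most shared base pairs, drawn to scale relative to the annotated start (x axis, bp, negative values upstream), with abiraterone above and Romidepsin below at each gene and a tick at each summit. The pairs at ZNF496 and GRM3 straddle the dashed line that marks the start, those at VCL, LINC00265 and CDC40 lie downstream, and the other 5 pairs lie upstream.

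The genes that ranked best by fold over both lists were mostly not marked at one site. Ranked by the worse of their 2 ranks by fold, the leading gene was CDK15, another cyclin-dependent kinase, with a peak of fold 6.65 (rank 7) 460 bp downstream of a start after abiraterone and one of fold 4.35 (rank 93) 10 bp upstream of a different start after Romidepsin. At MIDEAS, a subunit of a histone deacetylase complex, MFSD6, a membrane transporter homologue, the drug exporter ABCC1 and MAPKAP1, a subunit of the kinase complex mTORC2, the peaks were likewise at different starts. At UTP14C, a ribosome biogenesis gene, the abiraterone peak (fold 5.55) lay 161 bp downstream and the Romidepsin peak (4.30) 281 bp upstream of the same start, and LINC00881 had its abiraterone peak 953 bp upstream and its Romidepsin peak 155 bp downstream. At the kinase gene STK40, peaks of fold 3.78 and 5.23 lay 408 and 488 bp upstream, and at ATOX1, a copper chaperone, peaks of fold 3.78 and 4.99 lay 193 and 963 bp upstream. TAS2R60, a bitter taste receptor gene, had 3 abiraterone peaks between 154 bp upstream and 399 bp downstream (folds 2.85, 4.72 and 2.69) and a single Romidepsin peak over the start (4.30). Only MIDEAS, LINC00881, STK40 and ATOX1 reached a −log10 q of 2 in each list. The Romidepsin peaks of CDK15, MFSD6, MAPKAP1, UTP14C, TAS2R60 and ABCC1 stood at 1.96, at tied ranks of 93 or 202.

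Genes of transcription and of the histones themselves had start-site peaks at shares around the background. Of 28 H2A genes, 3 had an abiraterone peak (H2AC20 and MACROH2A2 over the start, H2AC7 830 bp downstream) and 2 a Romidepsin peak (H2AC8 over the start, MACROH2A1 709 bp upstream), and none had one in each list. Of 68 other histone genes, 4 and 3 had one. None of the 15 RNA polymerase II subunits had an abiraterone peak and 1, POLR2C, a Romidepsin peak, and among 37 general transcription factor genes the numbers were 4 and 2. Of 33 Mediator genes, which couple activators to the polymerase, 1 (MED17) had an abiraterone peak and 6 (18.2%, 6.98 to 35.5) a Romidepsin peak, MED4 with a fold of 5.16 among them. Each of these intervals, wide because the groups are small, includes the share over all protein-coding genes.

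Within 1 kb of a start, groups active in nearly every cell and tissue-restricted groups had shares in the same range. Of 92 respiratory chain and ATP synthase genes, 10 (10.9%, 5.34 to 19.1) had an abiraterone peak and 9 (9.78%, 4.57 to 17.8) a Romidepsin peak, and NDUFB3, UQCRC2 and ATP5MJ had both. Of 50 proteasome genes, 4 and 5 had one, and PSMD4 and PSME3 had both. At PSMD4, a ubiquitin receptor of the proteasome, the nearest peaks lay 357 bp (abiraterone) and 345 bp (Romidepsin) downstream. Of 152 keratin and keratin-associated genes, most of which serve epidermis and hair, 12 (7.89%, 4.15 to 13.4) and 17 (11.2%, 6.65 to 17.3) had one, and KRTAP12-3 had both. Of 28 taste receptor genes the numbers were 2 and 4, of 53 clustered protocadherins 2 and 7, and of 39 beta-defensins 0 and 2. Of 17 aminoacyl-tRNA synthetase genes they were 1 and 3 (17.6%, 3.80 to 43.4). With promoters up to 3 kb the shares spread more widely. Aminoacyl-tRNA synthetases then had the highest shares of these groups, 29.4% after abiraterone and 52.9% after Romidepsin. Beta-defensins had the lowest, 2.56% and 5.13%, beside 17.0% and 26.0% of all protein-coding genes. Gene activity was not measured in these files.

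**Figure D5:**
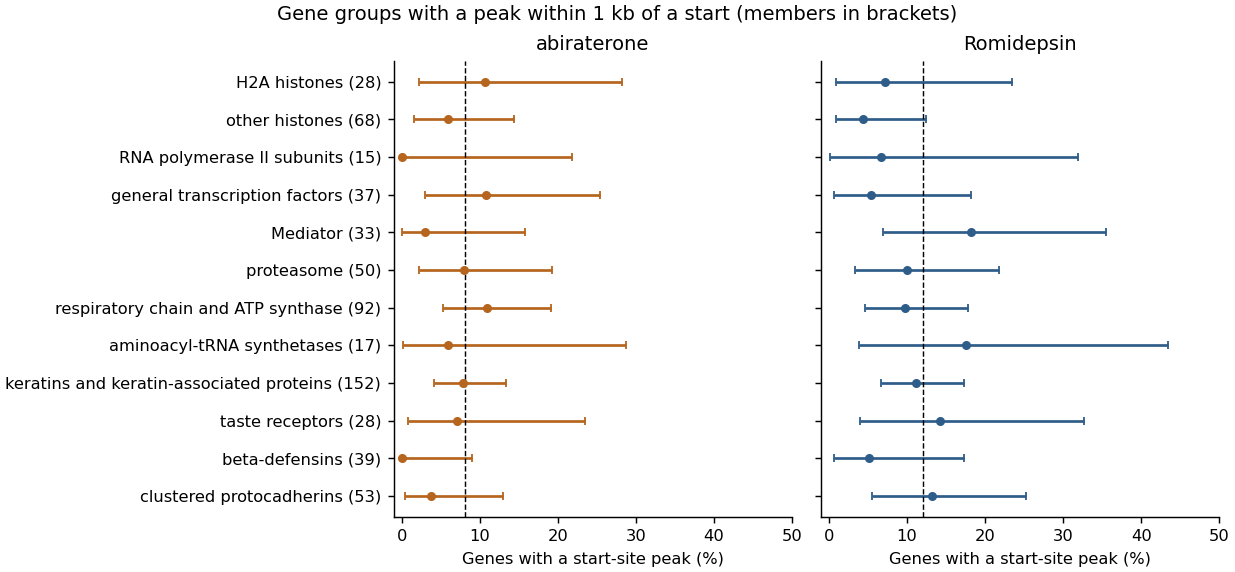
Share of the genes of each group with a start-site peak (x axis, %) after abiraterone (left) and Romidepsin (right), with exact 95% binomial intervals as bars and the number of genes in each group in brackets. The dashed lines mark the share over all protein-coding genes, 8.08% and 12.1%, and each group's interval reaches the line.

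Of 15 genes that the study turns on, 3 had an abiraterone and 4 a Romidepsin start-site peak, a list that was chosen in connection with these samples. FDPS, the farnesyl diphosphate synthase of the mevalonate pathway, had an abiraterone peak 734 bp upstream (fold 2.83) and a Romidepsin peak over the start (2.61). SREBF1, which encodes a regulator of lipid synthesis genes, had an abiraterone peak 441 bp upstream of one annotated start and a Romidepsin peak 775 bp upstream of another. The deacetylase genes HDAC1 and HDAC2, whose products Romidepsin inhibits, had Romidepsin peaks only downstream of the start, at 739 bp and at 683 and 990 bp.

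MIR1296 was the only one of the microRNA genes with a start-site peak in each list. Its abiraterone peak, of 229 bp and fold 4.05, lay 646 bp upstream of the annotated start. Its Romidepsin peaks, of 540 and 384 bp, lay 215 and 963 bp downstream, so no peaks overlapped. RefSeq lists a mature product, shown with its seed (bases 2 to 8) in capitals.
hsa-miR-1296-3p: gAGUGGGGcuucgacccuaacc

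Promoter composition was mostly close to that of all genes. RefSeq promoters of 300 bases (250 before and 50 after the start) were found for 15842 of the 20033 protein-coding genes, and 63.4% (62.6 to 64.2) of them were CpG-rich, with a GC content of at least 50% and an observed to expected CpG ratio of at least 0.6. Each gene was scored by a single RefSeq promoter, joined by gene identifier. At genes with several starts it need not be the promoter at which the peak lay, also for peaks that covered a start. The share was 66.5% (63.9 to 69.0) for genes with an abiraterone start-site peak, 63.4% (61.3 to 65.5) for Romidepsin and 60.8% (54.7 to 66.6) for genes in both lists. The abiraterone interval lies just above the share of all promoters. Read the other way, 8.90% (8.35 to 9.47) of CpG-rich and 7.78% (7.10 to 8.50) of other promoters belonged to a gene with an abiraterone peak, and 12.6% of each belonged to one with a Romidepsin peak. The order changed with transcript number. With 1 to 3 transcripts, abiraterone shares were 7.14% (CpG-rich) and 5.13% (other), with intervals that do not overlap. They were 8.40% and 9.60% with 4 to 7, and 11.4% and 12.4% with 8 or more, with overlapping intervals. Romidepsin shares were 10.3% and 9.24%, then 12.2% and 13.9%, with overlapping intervals. With 8 or more they were 15.6% (14.4 to 16.9) and 19.3% (17.2 to 21.5), and these intervals do not overlap. Among genes whose Romidepsin peak covered the start, 56.1% (50.6 to 61.6) had a CpG-rich promoter, an interval below the share of all promoters, beside 63.1% (56.8 to 69.1) after abiraterone.

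Most motifs were present at rates whose intervals included that of all promoters. A GC box was found in 58.5% (57.7 to 59.3) of all these promoters, 58.1% (55.4 to 60.7) of the abiraterone set and 60.0% (57.8 to 62.2) of the Romidepsin set. A CCAAT box was found in 36.4%, 35.5% and 37.1%, and a TATA box in 9.63% (9.17 to 10.1), 8.25% (6.84 to 9.85) and 8.68% (7.48 to 10.0). An E-box (CACGTG) was found in 8.88%, 9.81% and 8.88%, and the NRF1 motif in 1.75%, 1.93% and 1.56%. The sterol regulatory element was found in 1 promoter of each set. The ETS motif, searched as CCGGAAGT, was found in 6.19% of all promoters, 7.14% (5.82 to 8.65) of the abiraterone set and 5.02% (4.10 to 6.07) of the Romidepsin set, and the last interval lies below the share of all promoters. These are matches of letters on either strand of the window and not bound sites.

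After abiraterone, the side on which a peak was counted moved with the presence of a neighbouring gene on the opposite strand. For genes whose start had a divergent neighbour within 1 kb, 29.8% (25.2 to 34.7) of abiraterone start-site peaks were upstream, beside 43.0% (40.2 to 45.8) for genes without one. The shares were 39.4% (35.0 to 44.0) and 42.6% (40.4 to 44.9) after Romidepsin, with intervals that overlap. Each peak is assigned to its nearest start, so a peak upstream of one gene can be counted downstream of its neighbour. The part of this in the difference was not tested.

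Across chromosomes, start-site peaks made up the largest share of peaks on the gene-rich chromosome 19, with 11.9% (9.67 to 14.4) after abiraterone and 10.7% (9.15 to 12.4) after Romidepsin. They made up 1.47% (0.954 to 2.16) and 2.30% (1.69 to 3.06) on chromosome 18. The ratio of abiraterone to Romidepsin start-site peaks was 0.668 overall and ranged from 0.414 on X to 1.07 on chromosome 13. Over all peaks of the lists the ratio was 0.742, from 0.443 on X to 1.28 on chromosome 3, with 0.835 on chromosome 13. The low ratio on X was thus shared by the whole lists.

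At the edge of the definition, the peaks nearest to 1 kb on the inside were at MIR5685 (1000 bp, fold 2.83) and FAM237A (999 bp, 2.69) after abiraterone, and included PLTP (1000 bp, 5.23) after Romidepsin. On the outside, those after Romidepsin were at C2orf76 and MOGAT1 (1001 bp, 2.61 each).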

How the data were processed

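H2A-K130ac ChIP-seq peaks of C4-2B cells were analysed from 1 list per treatment, and the other samples were not analysed here. The study names Bowtie and MACS, and per the labels MACS2 and hg38 were used. The last peaks on chromosome 1 and the transcript identifiers are those of hg19, so no peak coordinate was set against GRCh38.p14. RefSeq of that build was joined by gene identifier for names, gene types, promoter sequences with their own coordinates, and divergent neighbours. The deposited fold is a ratio over the control, the deposited −log10 p- and q-values come from the authors' peak caller, and the deposited score restates the −log10 p, multiplied and cut to a whole number. Depth per peak and the control used for these lists are unknown. Whether duplicates were pooled is not stated. Distances in the annotated tables were recomputed and were equal in all rows, and the conservative tables were identical to the optimal ones.

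Start-site peaks carried the annotation of at most 1 kb and were compared by side, width, gene and overlap of at least 1 bp, with exact 95% binomial intervals for shares and order-statistic intervals for medians, which cover counting error only. No test was run, as each treatment has 1 peak list. Genes were named by rule: genes of the study, the 5 of highest fold, the 10 best by the worse rank in both lists, the 10 sharing most base pairs, the 3 with most peaks, and edge cases, some of which are not reported here. Group members with values were chosen after their values were seen, as were the sides of the 100 highest peaks and the neighbour distances. The members and lists were chosen with earlier results of these data known. The functions were tested on simulated data. Tables were handled with pandas 2.3.3 and numpy 2.4.6, intervals with scipy 1.17.1 and figures with matplotlib 3.10.9, under Python 3.11.15.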

Additional observations from a re-analysis of the deposited data

How the results depend on the processing

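No paired analysis was possible because there was 1 peak list per treatment. Values are given for abiraterone and then Romidepsin. Of 46 alternative values, 9 stayed within the interval of the reported value or within 1.5 times a reported count, and these include both conservative lists and every share counted with 1 peak per gene.

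With a −log10 q of at least 2, start-site peaks made up 3.30% and 3.21% of peaks, 38.0% and 46.2% of them were upstream and 17.2% and 11.2% over the start, their median width was 392 and 456 bp and their median fold 3.78 and 5.16. Genes with such a peak then numbered 520 and 80, with 4 in both lists or 0.769% of the abiraterone genes, and 0.179% and 1.25% of start-site peaks overlapped those of the other list.

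With the summit within 1 kb the share was 2.70% and 2.91%, and by side of the summit 48.0% and 49.3% were upstream. Without the peaks over the start the median width was 343 and 361 bp. With only those peaks, there were 332 and 455 genes, 16 in both or 4.82%, and 63.1% and 56.1% had CpG-rich promoters. With promoters up to 3 kb, the share of peaks was 7.58% and 8.85%, genes numbered 3883 and 6012 with 1374 in both or 35.4%, and 17.0% and 26.0% of protein-coding genes had a peak. With 50% of both peaks required, 1.67% and 1.12% overlapped.

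The 347 genes with a start-site peak in each list thus fall to 4 when weak peaks are left out. A single peak list per treatment and unknown depth per peak limit every comparison between the lists.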
